A study of Mus musculus with 4 samples.

Results

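Absorptive enterocytes are the cells of the intestinal epithelium that digest and take up nutrients, and 44 genes of that work were followed here through RNA-seq of T cells sorted from the same epithelium. The 44 were taken as a named list of brush border, digestive enzyme, transporter and lipid handling genes, out of 19339 genes listed in each library. The libraries held RNA of TCRβ+CD8αα+ intraepithelial lymphocytes (IELs) of the small intestine of C57BL/6 mice, sorted as CD45+CD4-TCRβ+CD8α+CD8β- cells. Con1 and Con3 are replicates 1 and 3 of the control group, mice with floxed Kdm6b (Kdm6b fl/fl). KO1 and KO3 are replicates 1 and 3 of the group labelled Kdm6b-deficient (Kdm6b fl/fl-CD4Cre), in which a CD4Cre transgene acts on the same floxed alleles in the T lineage from a late stage of thymocytes without CD4 or CD8. KO and Con stand for what the labels say of a library. The enterocyte lineage is therefore not the lineage in which this Cre is driven. Each library was made from RNA of several mice of 1 genotype, and whether pools of equal number were prepared together was not stated, so the p-values below measure only the spread between these pools.

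An enterocyte carries a dense cover of microvilli, the brush border, whose membrane holds the enzymes that finish the digestion of sugars, peptides and phosphate esters. Transporters beside those enzymes take up the products, and inside the cell fatty acids and monoglycerides are rebuilt into triglyceride, packed with apolipoproteins into chylomicrons and sent to the lymph. HNF4α, the CDX factors and GATA4 are transcription factors of this lineage, and IELs lie between its cells, so that epithelial cells or their RNA can accompany an IEL preparation.

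All 44 genes were detected in every library, and 34 of them had at least 1 FPKM (sequenced fragments scaled to the length of the transcript and to all mapped fragments of the library) in every library. Markers of the sorted cells were high throughout: in Con1, Con3, KO1 and KO3, in that order here and below, *Cd3e* had 505, 352, 357 and 304 FPKM, *Cd8a* 463, 418, 337 and 280 FPKM and *Ptprc*, which encodes CD45, 410, 389, 377 and 268 FPKM. *Cd8b1*, the chain the sort gated out, lay at 0 in Con1 and at no more than 1.64 FPKM elsewhere. The epithelial adhesion gene *Epcam* was also present, at 94.5, 229, 187 and 457 FPKM. *Kdm6b*, the targeted gene (chr11:69398508-69420367, GRCm38.p6), had 16.5, 16.0, 18.2 and 11.1 FPKM, so that the library labelled KO1 lay above both controls and the FPKM gave no drop of the whole transcript in it. Which exons are deleted cannot be seen in a value for the whole gene, so these levels check the labels neither way. Relative to Con1, the depth read from the spacing of low FPKM values was equal in Con3, 1.03 in KO1 and 0.839 in KO3. In these bulk libraries more cells of a type and more RNA per cell cannot be told apart.

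The sequences before the start sites of 4 of the genes are shown because they carry, or in the last case lack, letters that intestinal transcription factors or the core promoter machinery are known to bind. They are the 250 bases upstream of the first listed start, from RefSeq on GRCm38.p6, read 5′ to 3′ on the gene's strand. The window of *Fabp1*, the liver-type fatty acid binding protein, is chr6:71199629-71199878 (plus strand), and that of *Sis*, sucrase-isomaltase, is chr3:72967864-72968113 (minus strand). The window of *Rbp2*, which binds retinol in the enterocyte, is chr9:98490287-98490536 (plus strand), and that of *Ezr*, which encodes ezrin, is chr17:6782781-6783030 (minus strand). Capitals mark AGGTCA (the core of nuclear receptor sites), GTTAAT (the core of HNF1 sites), CAATAAA (bound by CDX factors), AGATAA (bound by GATA factors) and TATAAA (a box of core promoters), on either strand.
Fabp1: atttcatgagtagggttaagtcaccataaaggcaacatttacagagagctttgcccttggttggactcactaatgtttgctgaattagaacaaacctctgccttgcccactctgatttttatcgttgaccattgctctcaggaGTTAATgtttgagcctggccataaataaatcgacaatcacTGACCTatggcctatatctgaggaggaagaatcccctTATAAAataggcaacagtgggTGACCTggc
Sis: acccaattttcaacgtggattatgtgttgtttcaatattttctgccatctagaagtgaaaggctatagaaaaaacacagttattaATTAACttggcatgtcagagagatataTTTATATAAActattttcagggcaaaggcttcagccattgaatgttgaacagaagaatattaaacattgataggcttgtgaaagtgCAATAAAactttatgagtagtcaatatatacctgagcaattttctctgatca
Rbp2: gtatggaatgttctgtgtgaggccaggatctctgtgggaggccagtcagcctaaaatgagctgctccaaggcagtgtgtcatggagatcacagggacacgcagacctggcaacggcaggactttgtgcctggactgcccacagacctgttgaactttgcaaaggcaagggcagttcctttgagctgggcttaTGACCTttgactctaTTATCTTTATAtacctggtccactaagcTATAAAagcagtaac
Ezr: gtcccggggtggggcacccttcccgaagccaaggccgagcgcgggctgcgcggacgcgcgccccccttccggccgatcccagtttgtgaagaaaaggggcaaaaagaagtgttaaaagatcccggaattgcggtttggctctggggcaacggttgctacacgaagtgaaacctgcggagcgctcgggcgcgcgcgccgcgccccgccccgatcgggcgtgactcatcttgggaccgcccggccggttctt
In *Fabp1* the nuclear receptor letters began 67 and 9 bases before the start, with GTTAAT at 107 bases and TATAAA at 30 bases. In *Sis* the CDX letters began 52 bases before the start, and its capital run of 10 letters is an overlap of TATAAA on both strands. The run of 11 letters in *Rbp2* joins the GATA letters, at 43 bases, to TATAAA, both read on the strand opposite to the one shown. *Ezr* held none of these letters in the window.

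Upstream sequence was given for 37 of the 44 genes and for 27025 genes in all. TATAAA occurred in 11 of the 37 (29.7%) against 13.0% of all, AGGTCA in 9 (24.3%) against 13.8%, AGATAA in 8 (21.6%) against 10.3%, GTTAAT in 7 (18.9%) against 6.52% and CAATAAA in 3 (8.11%) against 4.42%. The longer HNF4 form CAAAGTCCA was present in 2, *Alpi* and *Treh* (5.41% against 0.381%), and TGATAA, another GATA form, in 3 (8.11% against 8.16%). These are letter matches on both strands, described without a test, and the median GC content was 53.6% for the 37 and 52% for all. Neighbouring genes shared some of the sequence: *Abcg5* and *Abcg8* are transcribed away from each other from start sites 110 bases apart.

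The genes of lipid handling held several of the most abundant genes of the list. *Fabp1* (chr6:71199879-71205034), which carries fatty acids in the cytosol, had 77.8, 231, 229 and 544 FPKM. *Fabp2*, its intestinal relative, had 31.6, 119, 89.8 and 294 FPKM, and *Apoa1*, the main apolipoprotein of high density lipoprotein, 36.2, 104, 99.8 and 254 FPKM. In all of them Con1 was lowest and KO3 highest, with Con3 and KO1 between, so that the groups overlapped. *Rbp2* followed with 43.3, 114, 86.3 and 273 FPKM. Of the other apolipoproteins, *Apoa4* had 14.4, 45.0, 28.1 and 142 FPKM and *Apoc3*, an inhibitor of lipoprotein lipase, 3.60, 9.41, 5.26 and 36.6 FPKM. Here KO1 lay below Con3 by more than in *Apoa1*, although *Apoa1*, *Apoc3* and *Apoa4* are neighbours on chromosome 9. *Apob*, the structural protein of the chylomicron, had 1.62, 3.80, 3.64 and 12.7 FPKM, and *Mttp*, which loads lipid onto it, 9.51, 37.9, 29.4 and 87.6 FPKM.

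The enzymes of triglyceride synthesis did not share a pattern. *Mogat2*, which acylates monoglyceride, had 7.76, 22.0, 15.9 and 47.8 FPKM, and *Dgat2*, which makes triglyceride from diglyceride, 2.85, 5.79, 4.49 and 16.9 FPKM. *Dgat1* (chr15:76502012-76512021), which catalyses the same last step and is active in many tissues, ran the other way at 442, 402, 390 and 316 FPKM, lower in both KO libraries than in both Con libraries. Sterol transport followed the common order: *Npc1l1*, the cholesterol uptake protein, had 2.13, 7.97, 6.37 and 20.5 FPKM. *Abcg5*, 1 chain of the transporter that returns plant sterols to the lumen, had 3.64, 9.30, 13.1 and 26.6 FPKM, and *Abcg8*, the other chain, 0.74, 2.56, 2.58 and 5.72 FPKM. Both chains were higher in both KO libraries than in both Con libraries, by a narrow margin for *Abcg8*. Their annotated spans overlap on opposite strands (chr17:84658174-84683011 and chr17:84676302-84700333), and it was not stated that the counting used strand, so their reads may not be fully separate.

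**Figure D1:**
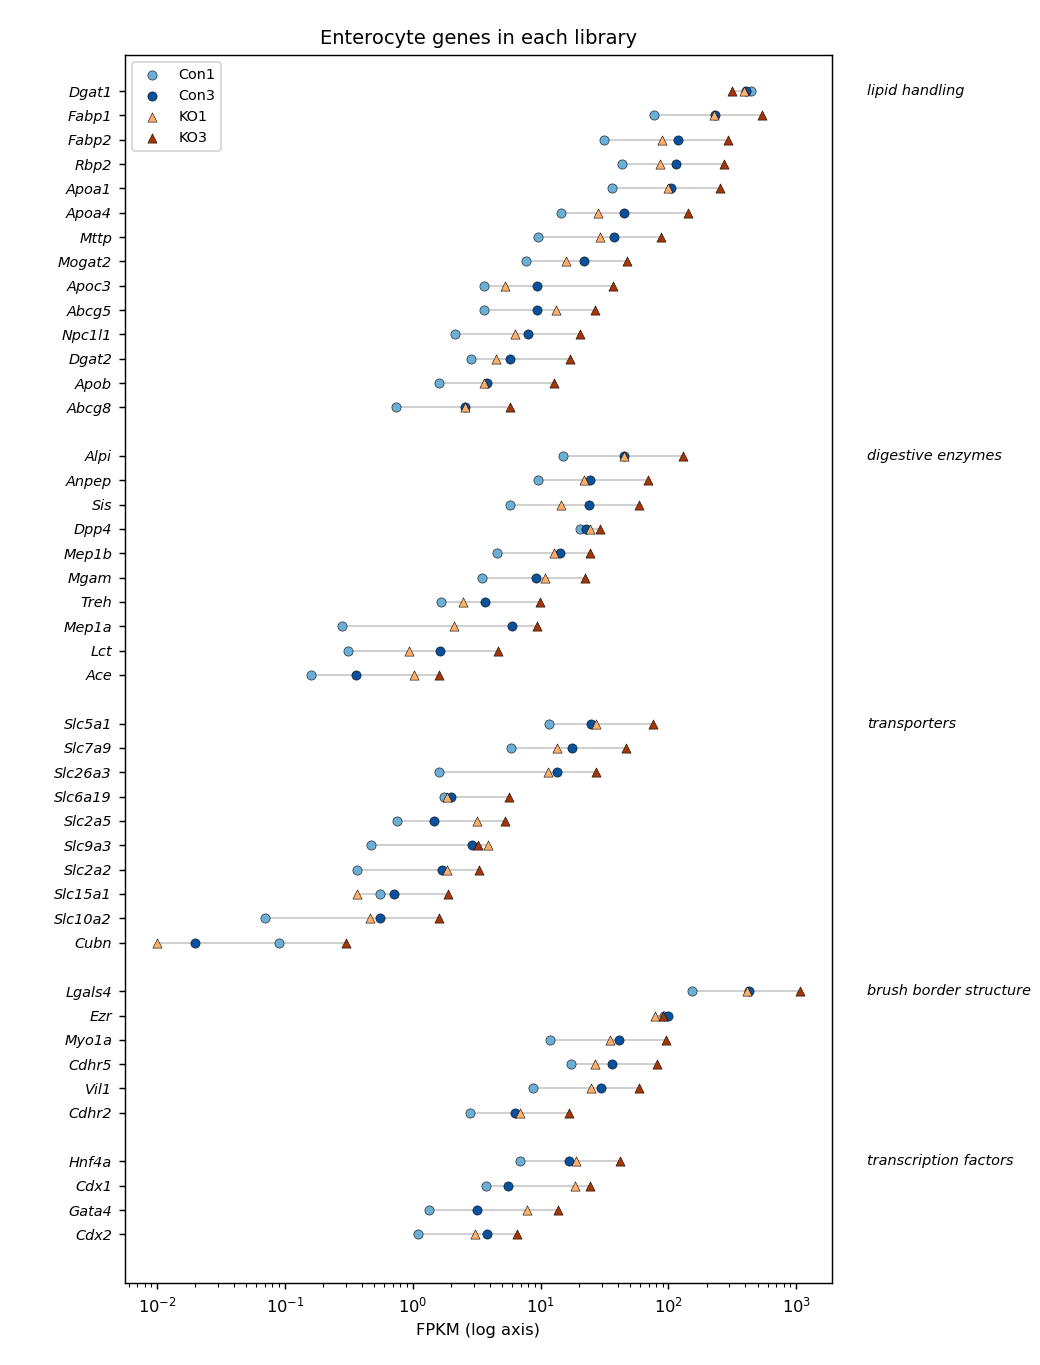
FPKM of the 44 enterocyte genes (log axis) in the 4 libraries, grouped by role, with 1 point per library. Con1 was lowest and KO3 highest for 39 of the 44, Con3 and KO1 lay between them, and *Dgat1*, *Ezr* and *Dpp4* show little spread.

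Among the digestive enzymes *Alpi*, the intestinal alkaline phosphatase, was the highest by mean level, at 15.1, 45.2, 44.6 and 130 FPKM. *Anpep*, aminopeptidase N, had 9.49, 24.5, 22.0 and 69.4 FPKM, and *Sis*, which splits sucrose and isomaltose, 5.78, 23.9, 14.5 and 58.4 FPKM. The other disaccharidases lay lower, again with Con1 lowest and KO3 highest in each. *Mgam*, maltase-glucoamylase, had 3.49, 9.28, 10.9 and 22.4 FPKM, *Treh*, trehalase, 1.67, 3.70, 2.48 and 9.92 FPKM and *Lct*, lactase, 0.31, 1.64, 0.93 and 4.69 FPKM. The meprins, metalloproteases of the brush border, separated from each other: *Mep1b* had 4.58, 14.2, 12.7 and 24.3 FPKM, with Con3 and KO1 close, and *Mep1a* 0.28, 5.98, 2.12 and 9.33 FPKM, with a wide gap between Con3 and KO1. *Dpp4* (chr2:62330073-62412315), a peptidase that is also the T cell surface antigen CD26, was nearly level at 20.3, 22.5, 24.2 and 29.0 FPKM. *Ace*, the angiotensin converting enzyme, had 0.16, 0.36, 1.02 and 1.61 FPKM, both KO libraries above both Con libraries.

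Transporters had lower levels than the digestive enzymes: their median was 0.66, 1.84, 2.51 and 4.31 FPKM, against 4.04, 11.8, 11.8 and 23.3 FPKM for the enzymes. *Slc5a1* (chr5:33104219-33162699), the sodium-glucose transporter SGLT1, led them with 11.7, 24.7, 27.3 and 76.0 FPKM. *Slc7a9*, the light chain of the cystine transporter, had 5.91, 17.6, 13.5 and 46.6 FPKM, and *Slc26a3*, the chloride-bicarbonate exchanger, 1.60, 13.4, 11.5 and 27.3 FPKM. Of these only *Slc5a1* had both KO libraries above both Con libraries. The other sugar carriers did too: *Slc2a5*, the fructose transporter, had 0.76, 1.48, 3.16 and 5.29 FPKM and *Slc2a2*, the basolateral glucose transporter, 0.37, 1.70, 1.86 and 3.33 FPKM. *Slc9a3*, the sodium-proton exchanger NHE3, had 0.47, 2.93, 3.87 and 3.22 FPKM, with KO1 and not KO3 the highest. *Slc6a19*, the carrier of neutral amino acids, was close in the first 3 libraries, at 1.77, 1.98 and 1.85 FPKM, against 5.65 FPKM in KO3. The peptide transporter *Slc15a1* (0.56, 0.72, 0.37 and 1.89 FPKM), the ileal bile acid transporter *Slc10a2* (0.07, 0.56, 0.46 and 1.62 FPKM) and *Cubn*, the receptor for the intrinsic factor-cobalamin complex (0.09, 0.02, 0.01 and 0.30 FPKM), were too low to be tested. From the spacing of low values, *Cubn* in KO1 rested on about 1.44 fragments and *Slc10a2* in Con1 on about 3.62.

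Structural genes of the brush border held the gene of highest mean FPKM in the list. *Lgals4* (chr7:28833122-28841710), a galectin of enterocyte membrane domains, had 153, 428, 412 and 1067 FPKM. *Myo1a*, the myosin that ties the actin core of the microvillus to its membrane, had 11.9, 41.4, 34.8 and 96.5 FPKM, and *Vil1*, villin, which bundles that actin, 8.72, 29.5, 24.8 and 58.7 FPKM. These repeated the order of the lipid genes, with Con3 slightly above KO1. The cadherins that link microvilli tip to tip differed from each other in that respect: *Cdhr5* had 17.4, 36.0, 26.8 and 81.1 FPKM and *Cdhr2* 2.83, 6.33, 6.86 and 16.8 FPKM. *Ezr* (chr17:6738131-6782780), a linker of membrane and actin that lymphocytes also use, had 92.6, 98.4, 78.7 and 90.8 FPKM and so was lower in both KO libraries than in both Con libraries, narrowly so for KO3 against Con1.

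The transcription factors were low in FPKM, and both KO libraries lay above both Con libraries in 3 of the 4 (all tested genes: 18.4%). *Cdx1* (chr18:61018862-61036199) had 3.75, 5.60, 18.5 and 24.5 FPKM, and *Gata4* (chr14:63198914-63271712), which marks the proximal small intestine, 1.33, 3.17, 7.90 and 13.8 FPKM. In both genes KO1 stood well above Con3, which was not so for most enterocyte genes. *Hnf4a* had 6.88, 16.6, 19.0 and 41.6 FPKM, with KO1 just above Con3. *Cdx2* had 1.11, 3.78, 3.09 and 6.53 FPKM, so that its groups overlapped.

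Set side by side by label, 41 of the 44 passed the filter of at least 1 FPKM in at least 2 libraries and entered limma on log2(FPKM + 1) with all 12009 genes that passed. None of the 41 had an adjusted p under 0.05 (percentage of all tested genes: 0.00%), and the smallest adjusted p was 0.755 among them and 0.193 among all genes (limma, Benjamini-Hochberg). An unadjusted p under 0.05 was given to 642 of all genes, 5.35%. It was given to 5 of the 41, all higher in the KO libraries (12.2%, against 3.80% of all genes in that direction). Those 5 were *Cdx1* (log2 fold change 1.99, SE 0.30), *Gata4* (1.88, SE 0.43), *Slc2a5* (1.29, SE 0.38), *Abcg5* (1.51, SE 0.51) and *Hnf4a* (1.31, SE 0.52). A single gene cannot go below an exact two-sided permutation p of 0.333 with 2 libraries against 2. With the replicate number as a block, a pairing that the labels do not give, limma called 28 of the 41, all higher (68.3%). Of all genes 7.38% were called higher in that fit.

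The log2 fold change was above 1 in 27 of the 41 (65.9%), against 6.20% of all genes tested, and its median was 1.19, against 0.00097 over all genes. With 1 library left out the median of the members ranged from 0.49 to 1.90. Values on this scale understate the change of low genes. By role the median was 1.21 in lipid handling, 0.97 in the digestive enzymes, 1.21 in the 7 tested transporters, 1.17 in brush border structure and 1.59 in the transcription factors. The levels of *Fabp1* gave 1.39 (SE 0.62, range over the libraries left out 0.61 to 2.17) and those of *Lgals4* 1.37 (SE 0.63, range 0.63 to 2.11). *Dpp4* gave 0.30 (SE 0.21), and only *Dgat1* (-0.26, SE 0.20) and *Ezr* (-0.17, SE 0.17) were negative, both of which turned positive, to 0.13 and 0.22, after scaling to *Cd3d*, *Cd3e*, *Cd3g* and *Ptprc*. That scaling moved the median of all genes to 0.36, so both lay below it.

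Both KO libraries lay above both Con libraries in 13 of the 41 genes (31.7%), against 18.4% of all genes, and below them in 2, *Dgat1* and *Ezr*, against 18.6%. After scaling to *Cd3d*, *Cd3e*, *Cd3g* and *Ptprc* they lay above in 12 of 40, against 37.4% of all genes, so the members did not exceed all genes on that scale. *Ace*, one of the 13, passed the filter only through the KO libraries, in which it was higher. The 13 held 3 of the 4 transcription factors, 4 of the 7 tested transporters, 3 of the 10 enzymes, 2 of the 14 lipid genes and 1 of the 6 structural genes. In the remaining 26 the groups overlapped. Con1 was lowest and KO3 highest in 38 of the 41 (92.7%), against 22.0% of all genes. Without Con1 the genes with a log2 fold change above 1 numbered 3 (2.47% of all genes), without KO3 5 (2.69%), without Con3 35 (10.3%) and without KO1 36 (10.6%). With Con3 left out, 38 of the 40 genes still tested had KO above Con throughout, against 37.8% of all genes, and with KO1 left out also 38 of 40, against 38.9%. With Con1 left out the count was 13 of 41, against 28.9%, and with KO3 left out 12 of 39, against 32.2%. A gene separates more easily with 3 libraries than with 4.

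Libraries of the same label differed in these genes. The median ratio of Con3 to Con1 was 2.73 (quartiles 2.19 and 3.47) over the 44 genes, where the median ratio over all tested genes was 0.992. That of KO3 to KO1 was 2.78 (2.05 and 3.47), against 1.01. Between labels, the median ratio of KO1 to Con1 was 2.77 (1.98 and 3.21) and that of KO3 to Con3 2.50 (2.22 and 2.88), against 1.02 and 1.004. Each of these medians lay between 2.50 and 2.78. The widest contrast was KO3 over Con1, at 6.99 (5.94 and 9.24), against 0.985 over all genes. KO1 over Con3 had a median of 0.876 (0.757 and 1.08), against 0.999. Of the 41 tested genes 28 were lower in KO1 than in Con3, where 50% of all tested genes were.

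Counted at a difference above 1 in log2(FPKM + 1), 28 of the 41 were higher in Con3 than in Con1 (6.51% of all genes), 27 in KO3 than in KO1 (7.05%), 26 in KO1 than in Con1 (7.01%), 29 in KO3 than in Con3 (7.17%) and 38 in KO3 than in Con1 (13.7%). In KO1 over Con3 the count was 2 (3.44%), *Cdx1* and *Gata4*, and *Mep1a* was lower by as much.

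**Figure D2:**
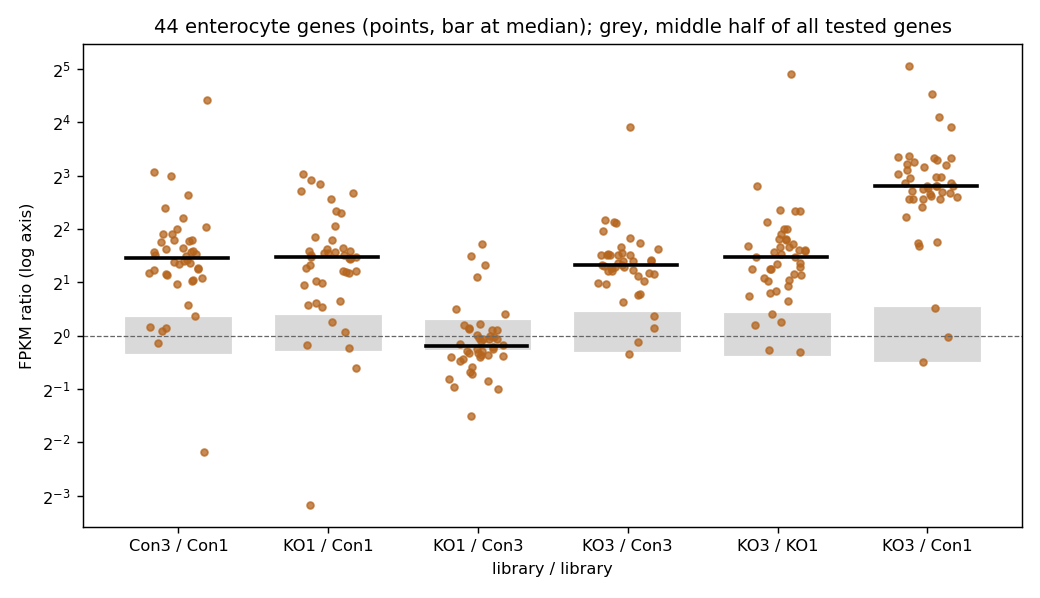
Ratio of FPKM (log axis) for each pair of libraries, with 1 point per enterocyte gene, a black bar at the median over the 44 genes and a grey box from the lower to the upper quartile of all tested genes. Ratios within a label (Con3 over Con1, KO3 over KO1) have medians of 2.73 and 2.78, and ratios between labels have medians of 2.77, 0.876, 2.50 and 6.99.

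Broad markers of the intestinal epithelium moved with these genes. The 8 called pan-epithelial here (*Krt8*, *Krt18*, *Krt19*, *Epcam*, *Cldn3*, *Cldn7*, *Cdh1* and *Krt20*, the last of differentiated cells) summed to 752 and 2413 FPKM in Con1 and Con3, and to 2178 and 6063 FPKM in KO1 and KO3, with none at 0 in any library. All 8 were lowest in Con1 and highest in KO3 (all genes: 22.0%), and 2 of the 8 had both KO libraries above both Con libraries (18.4%). Their median ratio to Con1 was 3.11 in Con3, 2.91 in KO1 and 6.30 in KO3. Markers of the sorted T cells were highest in Con1 and lowest in KO3 by their sum: the 9 measured (*Cd3d*, *Cd3e*, *Cd3g*, *Cd247*, *Cd8a*, *Ptprc*, *Itgae*, *Cd2* and *Lck*) summed to 5367, 4369, 4242 and 3059 FPKM, none at 0. The part of either list in the enterocyte values was not tested.

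**Figure D3:**
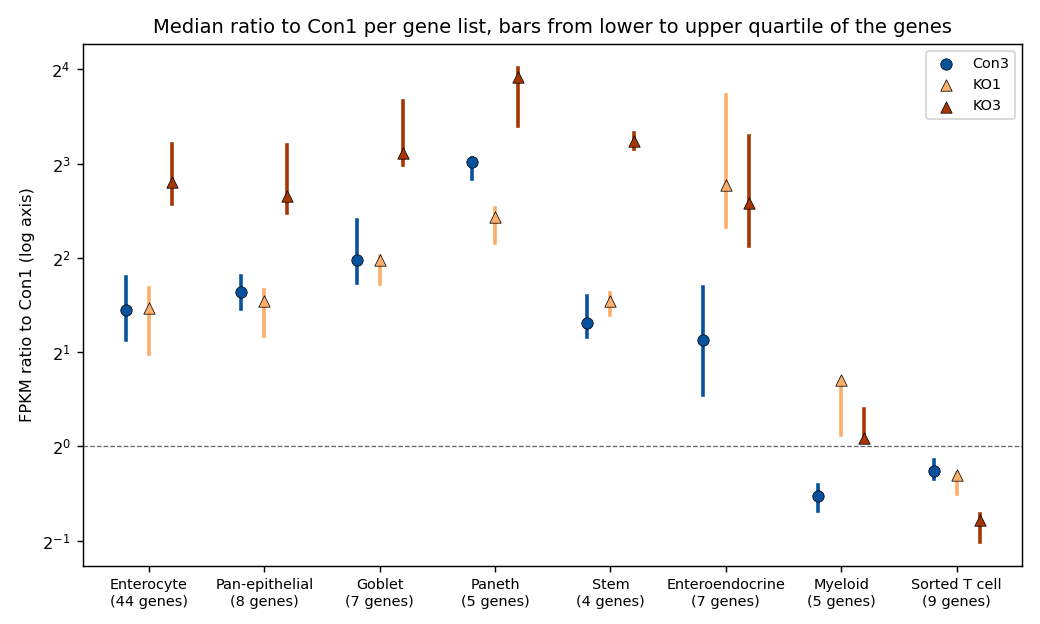
Median FPKM ratio to Con1 (log axis) in Con3, KO1 and KO3 for the 44 enterocyte genes and for 7 lists of cell type markers, with bars from the lower to the upper quartile over the genes of a list. The enterocyte genes stand at 2.73, 2.77 and 6.99, the pan-epithelial markers at 3.11, 2.91 and 6.30 and the T cell markers at 0.834, 0.813 and 0.581.

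Dividing every library by the geometric mean of its 8 pan-epithelial markers was added after the values had been seen. On that scale the median log2 fold change of the 40 genes still tested was 0.12, none was above 1 (all genes: 0.325%), and the median of all genes moved to -1.13. Both KO libraries lay above both Con libraries in 10 of the 40, against 2.01% of all genes. That share was 18.4% before the scaling moved the median of all genes down, so 2.01% is not a like background for epithelial genes. The 10 whose fold change turned negative were *Dgat2*, *Mogat2*, *Rbp2*, *Dpp4*, *Mep1b*, *Treh*, *Slc6a19*, *Vil1*, *Cdhr5* and *Cdx2*. *Gata4* kept 0.89 and *Cdx1* 0.86, followed by *Slc26a3* at 0.59, *Slc2a5* at 0.46 and *Abcg5* at 0.39. At the other end were *Dgat1* (-1.52), *Ezr* (-1.42) and *Dpp4* (-0.91), which lay near the median of all genes. None of the 40 had an adjusted p under 0.05 in limma, and the part of epithelial content in the differences between labels was not tested.

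**Figure D4:**
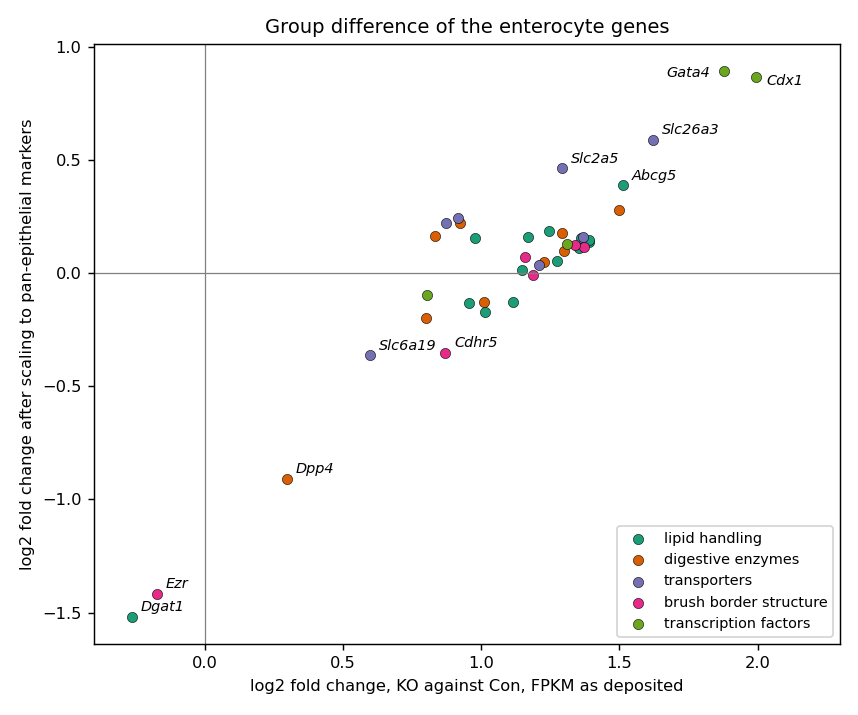
Log2 fold change, KO against Con, of the enterocyte genes with FPKM as deposited (x axis) and after scaling to the pan-epithelial markers (y axis), with 1 point per gene coloured by role. Most genes well above 0 on the x axis lie near 0 on the y axis, *Cdx1* and *Gata4* lie highest, and *Dgat1*, *Ezr* and *Dpp4* lowest.

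In KO1 the pan-epithelial markers summed to 0.903 of Con3, with single markers from 0.774 (*Krt20*) to 1.19 (*Krt18*), while Paneth cell markers had a median ratio of 0.533 and enteroendocrine markers one of 2.76. The genes highest in KO1 relative to Con3 were *Cdx1* (ratio 3.31), *Ace* (2.83), *Gata4* (2.49), *Slc2a5* (2.14) and *Abcg5* (1.41). Lowest were *Mep1a* (0.355), *Cubn* (0.50), *Slc15a1* (0.514), *Apoc3* (0.559) and *Lct* (0.567). Of the genes with the highest mean FPKM, *Lgals4* was at 0.962, *Dgat1* at 0.972, *Fabp1* at 0.993, *Fabp2* at 0.755 and *Rbp2* at 0.758. With 1 library on each side these ratios have no replicate check, and *Cubn*, *Ace*, *Slc15a1* and *Lct* are low genes.

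**Figure D5:**
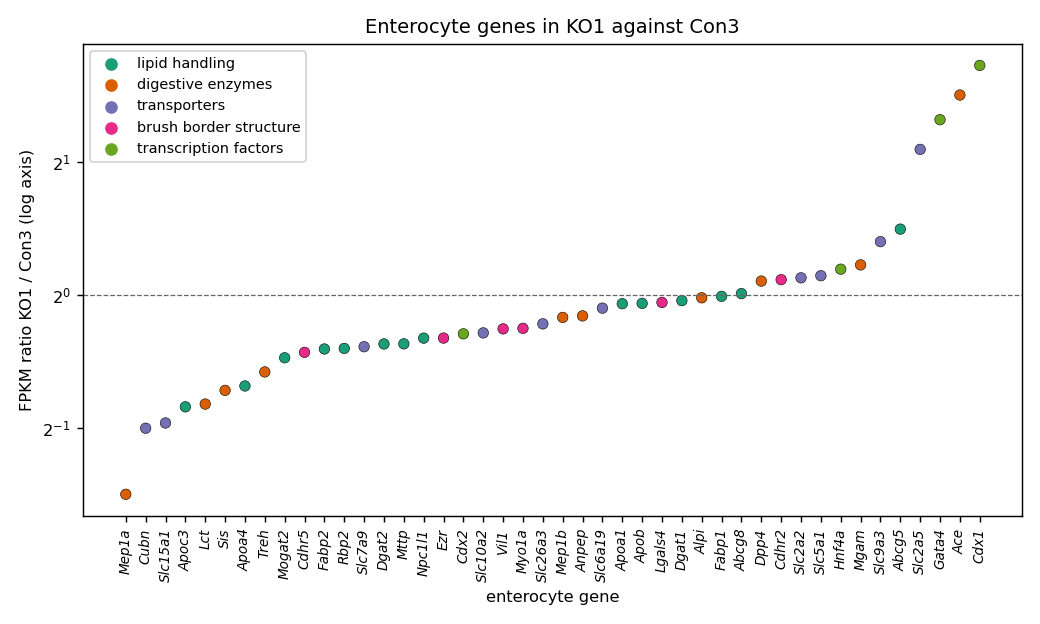
Ratio of FPKM in KO1 to that in Con3 (log axis) for the 44 enterocyte genes in rising order, with 1 point per gene coloured by role and a dashed line at equal values. Of the 44, 31 lie below the line, *Cdx1*, *Ace*, *Gata4* and *Slc2a5* lie highest and *Mep1a* lowest.

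Another 60 enterocyte genes in 6 lists gave a similar order of libraries with lower ratios. Of the 52 tested, 17 had both KO libraries above both Con libraries (all genes: 18.4%), 3 had them below (18.6%), 23 had a log2 fold change above 1 (6.20%), and none passed limma. The median log2 fold change was 0.89, and the median ratio to Con1 was 2.16 in Con3, 2.15 in KO1 and 5.43 in KO3. Con1 was lowest and KO3 highest in 41 of the 52, against 22.0% of all genes. In sugar and amino acid metabolism, *Cps1*, which makes carbamoyl phosphate for citrulline, had 32.2, 124, 116 and 303 FPKM. Of the factors, *Elf3*, of epithelial cells, had 47.5, 152, 151 and 353 FPKM and *Isx*, the intestinal homeobox gene that represses carotenoid and retinoid uptake, 7.92, 27.6, 30.6 and 56.6 FPKM.

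The remaining lists mixed genes of that order with level ones. *Ush1c*, the scaffold harmonin of the microvillus links, had 8.57, 17.8, 20.0 and 52.6 FPKM, and *Enpep*, aminopeptidase A, 7.03, 13.5, 11.5 and 30.0 FPKM. *S100g*, the calcium-binding calbindin of the duodenum, had 4.28, 17.2, 9.91 and 43.6 FPKM, and *Slc51a*, 1 chain of the basolateral bile acid carrier, 13.1, 31.9, 18.3 and 66.0 FPKM. *Slc39a4*, the zinc importer, varied less, at 31.2, 36.7, 38.7 and 51.2 FPKM. So did *Acsl5*, which activates fatty acids, at 101, 115, 132 and 157 FPKM, and *Sar1b*, a GTPase of chylomicron export, at 74.0, 85.7, 92.4 and 94.3 FPKM. *Slc28a2*, a concentrative nucleoside carrier, ran the other way with 107, 87.0, 78.4 and 61.2 FPKM, as *Dgat1* did.

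Position along the intestine divides some of these genes, since the bile acid genes belong to the ileum and *Gata4* to more proximal gut. In KO1 over Con3 the ileal genes *Fabp6*, the cytosolic bile acid binding protein (92.1 and 37.0 FPKM in Con3 and KO1), and *Slc51a* had ratios of 0.402 and 0.574. *Slc10a2* was at 0.821 and *Slc51b*, the other chain of the basolateral carrier (8.55 and 9.50 FPKM), at 1.11, against 2.49 for *Gata4*. Other genes of the proximal gut lay on both sides of 1: *S100g* was at 0.575 and *Lct* at 0.567, and *Slc40a1*, the iron exporter, was at 1.48. These genes were set together after their values had been seen, each value is 1 library against 1, and whether the pools differed in the stretch of intestine was not tested.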

How the data were processed

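TCRβ+CD8αα+ IELs were sorted from the epithelial layer of the small intestine after EDTA, DTT and Percoll steps, and RNA-seq libraries were sequenced on a HiSeq instrument by BGI. The authors deposited FPKM per gene from RSEM, scaled to transcript length and mapped fragments, after mapping with HISAT and Bowtie2 to mm10. The submitters' processing notes name Bowtie2 2.2.5, RSEM 1.2.8 and GRCm38.p5. The HISAT version and gene annotation were not given in the sources used here. Total reads are unknown, so relative depth was read from the spacing of low FPKM times length over 1352 genes of a single transcript.

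Symbols and positions came from RefSeq on GRCm38.p6 and matched 18467 of 19339 entries. Of the rest, 758 were predicted transcripts and 114 had no symbol. *Trac*, *Trbc1*, *Trbc2* and *Trdc* were not analysed here. Groups came from the sample titles. Genes that reached 1 FPKM in 2 or more libraries were fitted in limma 3.58.1 (R 4.3.3) with lmFit and eBayes with a trend on log2(FPKM + 1), control against Kdm6b-deficient, with Benjamini-Hochberg adjustment over 12009 genes. Ratios were taken on FPKM as deposited, with pandas 2.3.3 and numpy 2.4.6.

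The member genes, marker lists and tests were chosen with earlier results of these data known. Values are printed for the 3 genes of highest mean in each role, for every gene whose KO libraries were not both above both Con libraries, and for 2 genes of highest mean in each list of other enterocyte genes. A gene that this rule would name is not reported here. The other members, *Fabp6*, *Slc51b*, *Slc40a1* and single markers of other cell types were named after their values were seen. Alternatives were the pseudocount, the filter, the scaling, the replicate block, the trend and leaving out each library.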

Additional observations from a re-analysis of the deposited data

How the results depend on the processing

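With 2 libraries per group, no member passed limma under any alternative except the replicate block. The other alternatives chosen at the outset that keep all libraries were a pseudocount of 0.1, no filter, a filter of at least 5 FPKM, median-of-ratios scaling, scaling to *Cd3d*, *Cd3e*, *Cd3g* and *Ptprc*, and no trend. Under these the median log2 fold change of the members lay between 1.16 and 1.55. The filter of at least 5 FPKM left 8 members with both KO libraries above both Con libraries, of 31 tested (16.0% of all genes under that filter). Scaling to the T cell genes left 12 of 40, against 37.4% of all genes on that scale. With the replicate number as a block, limma called 1019 genes, 886 of them higher in the KO libraries (7.38%), and 28 of the 41 members, all higher (68.3%). The deviations of same-numbered libraries from their group means correlated at 0.56 across 12009 genes, but the labels give a shared number and no shared preparation, so the numbers were not taken to pair the libraries.

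Scaling to the pan-epithelial markers was added once the values were known. With it limma called 1 gene of all, and the median of the members was 0.12, against -1.13 over all genes. The members above a log2 fold change of 1 numbered 0, but only 0.325% of all genes lay above 1 after this scaling. Reversed on that scale were *Dgat2* (-0.13), *Mogat2* (-0.17), *Rbp2* (-0.13), *Dpp4* (-0.91), *Mep1b* (-0.13), *Treh* (-0.20), *Slc6a19* (-0.36), *Vil1* (-0.0092), *Cdhr5* (-0.35) and *Cdx2* (-0.095). Scaling to the T cell genes reversed *Dgat1* (0.13) and *Ezr* (0.22).

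Leaving out 1 library assumes that a lone library varies like the other group. It gave 3 to 36 members above a log2 fold change of 1 (2.47% to 10.6% of all genes) and a median of 0.49 to 1.90. KO lay above Con throughout in 13 of 41 members without Con1 (28.9% of all genes) and in 12 of 39 without KO3 (32.2%). The count was 38 of 40 without Con3 (37.8%) and 38 of 40 without KO1 (38.9%). Without KO3 *Apoc3* (range over the libraries left out -0.14 to 2.44), *Treh* (-0.026 to 1.62) and *Slc6a19* (-0.012 to 1.21) reversed, and without Con1 *Mep1a* (-0.30 to 2.15) did. The causes were not tested beyond what each alternative changes by construction. Since total reads were not known, counting error was left out.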

Other observations

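Other epithelial cell types followed the enterocyte order in part. The share of all genes lowest in Con1 and highest in KO3 was 22.0%. Goblet cell markers, among them *Tff3*, a secreted trefoil peptide (214, 734, 772 and 1666 FPKM in Con1, Con3, KO1 and KO3), had median ratios to Con1 of 3.94, 3.94 and 8.63 in Con3, KO1 and KO3, and all 7 were lowest in Con1 and highest in KO3. Paneth cell markers spread more widely, with median ratios of 8.09, 5.40 and 15.1: *Lyz1*, the lysozyme of these cells, had 494, 3153, 1600 and 5197 FPKM, and the summed level of the 5 measured was 2095, 16599.6, 9054 and 29688 FPKM. Stem cell markers had median ratios of 2.48, 2.91 and 9.45, with *Olfm4*, a crypt base gene, at 96.6, 263, 293 and 723 FPKM.

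Of the 6 enteroendocrine markers tested, 2 were lowest in Con1 and highest in KO3: *Gcg*, proglucagon (0.22, 1.77, 5.78 and 18.6 FPKM), and *Chga*, chromogranin A (0.39, 1.12, 2.70 and 5.13 FPKM). The list summed to 11.7 and 20.3 FPKM in Con1 and Con3, and to 81.1 and 71.5 FPKM in KO1 and KO3, and the 6 had both KO libraries above both Con libraries (all tested genes: 18.4%), with 0 past limma's adjusted threshold. *Neurod1* (0.21, 0.46, 1.27 and 1.18 FPKM) passed the filter only through the KO libraries, and *Gip* (0.44, 1.58, 0.06 and 0.71 FPKM), the only other marker of the list, did not pass it and was lowest in KO1. *Cck*, cholecystokinin, had 1.38, 1.78, 27.1 and 8.27 FPKM and *Chgb*, a granin of secretory granules, 2.85, 3.58, 19.5 and 18.5 FPKM.

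Lists of other cell types varied without the enterocyte order. Myeloid markers summed to 442, 305, 498 and 706 FPKM, mostly from *Lyz2* (365, 253, 396 and 626 FPKM). B cell markers summed to 21.8, 2.90, 52.0 and 3.13 FPKM, mostly from *Jchain* in Con1 and KO1. Red cell markers summed to 17.7, 133, 20.8 and 0.25 FPKM and stromal and endothelial markers to 15.4, 13.1, 13.9 and 11.1 FPKM. Tuft cell markers stayed at or below 0.36 FPKM in sum. *Cd4*, which the sort gated out, had 30.6, 10.1, 30.5 and 3.17 FPKM.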
